A study of Mus musculus with 43 samples.

Results

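The 37 genes described here encode enzymes of nucleotide and one-carbon synthesis, chosen by name: 12 of purine synthesis from simple precursors, 5 of pyrimidine synthesis, 6 of deoxynucleotide and thymidylate synthesis, 5 of folate one-carbon metabolism, 5 of salvage and 4 nucleotide kinases. Of these, 36 had a probe set that the array's annotation gives to that gene alone, and all 36 were tested, among 14479 genes tested in all. Impdh2, one of the enzymes that start guanine nucleotide synthesis, had no such probe set and was not analysed here. Each gene was read from its probe set of highest mean log2 value over all 43 arrays.

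Expression was measured on 43 Affymetrix whole-genome mouse arrays of CTLL-2, an established cytotoxic T cell line from a C57BL/6 mouse that depends on interleukin 2 (IL-2). The cells were first deprived of IL-2 for 14 h (starved 0 h, n = 5). They then received recombinant human IL-2 (100 U/mL) for 0.5, 1, 2, 6, 8, 10, 12, 16 or 24 h (n = 3 each) or for 4 h (n = 4). Other starved cultures were left for 4 h more (n = 4) or 8 h more (n = 3) with no IL-2. Every group therefore began with the same 14 h of starvation, and all arrays come from 1 line and not from separate animals. In the series' design text, arrays given IL-2 count as biological replicates. How the replicates lacking IL-2 were made is not said there, so their spread may be technical.

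Purine and pyrimidine rings are assembled step by step on phosphoribosyl pyrophosphate, and folate cofactors donate single carbons to purines and to thymidylate. Salvage enzymes reuse free bases and nucleosides, ribonucleotide reductase turns ribonucleotides into deoxynucleotides for DNA, and kinases charge the products to triphosphates. T cells that leave rest are known to build up this machinery before they copy their DNA.

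IL-2 was followed by 2 sets of changes among these enzymes. By 4 h 7 of 11 purine genes and 4 of 5 pyrimidine genes were called higher, by 0.59 to 2.41 on the log2 scale. Of all genes tested 7.74% were called higher then and 11.1% lower. The reductase subunit Rrm2 and the thymidine kinase Tk1 were lower by -1.92 and -1.93 at 4 h and were called higher only from 10 h. The mitochondrial one-carbon enzymes Shmt2 and Mthfd2 were called lower at 4 h and higher from 8 h, with smaller changes. Their lower calls were lost with median centring and in most fits that left out 1 array. Shmt2 was also lower with IL-2 than without it at 4 and 8 h, by -1.56 and -1.05, between arrays of different scan years. Ctps2, a relative of Ctps, was called lower at every time from 4 h. With median centring its calls at 4, 16 and 24 h were lost. Its 4 h call was also lost in most fits that left out 1 array, and its 24 h call without IL-2 24 h replicate 1. An F test across starved 0 h and all 10 times of IL-2 together called 27 of the 36 members, against 33.1% of all genes tested.

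The signals are array intensities on a linear scale that the authors had scaled to the same trimmed mean, from 500.003 to 500.004 on all 43 arrays. All differences below are on the scale log2(signal + 16), a scale that understates changes of dim genes, and errors beside them are standard errors. A gene was called at an adjusted p under 0.05 (limma, Benjamini-Hochberg over 32184 probe sets). Median signal ran from 96.3 to 118.6 on the 7 arrays of scan day 2 and from 46.1 to 76.5 on the other 36. All 7 arrays without IL-2 were scanned in another year than the other 36, with an actin 3'/5' signal ratio of 1.18 to 1.53 (median 1.34) against 1.07 to 1.36 (median 1.16). For those 2 groups scan year and condition cannot be told apart. Replicate 2 of no IL-2 at 4 h stood apart. It was placed over 412 probe sets that held no member and were chosen as much higher with IL-2 than without it at 8 h. On these it lay 0.685 of the way to the IL-2 4 h arrays, where 0 marks the other no IL-2 4 h arrays. The other 3 lay between -0.365 and -0.21, each against a baseline that held replicate 2. Of 12 T cell markers with a probe set, 11 exceeded the array median on most arrays, as did 0 of 4 B cell, 0 of 3 erythroid, 1 of 5 fibroblast and 4 of 5 macrophage markers. The macrophage list summed to 517 to 2415 per array, led by Cd68, and had its highest group mean, 2107, in no IL-2 at 4 h; its part in the results was not tested.

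**Figure D1:**
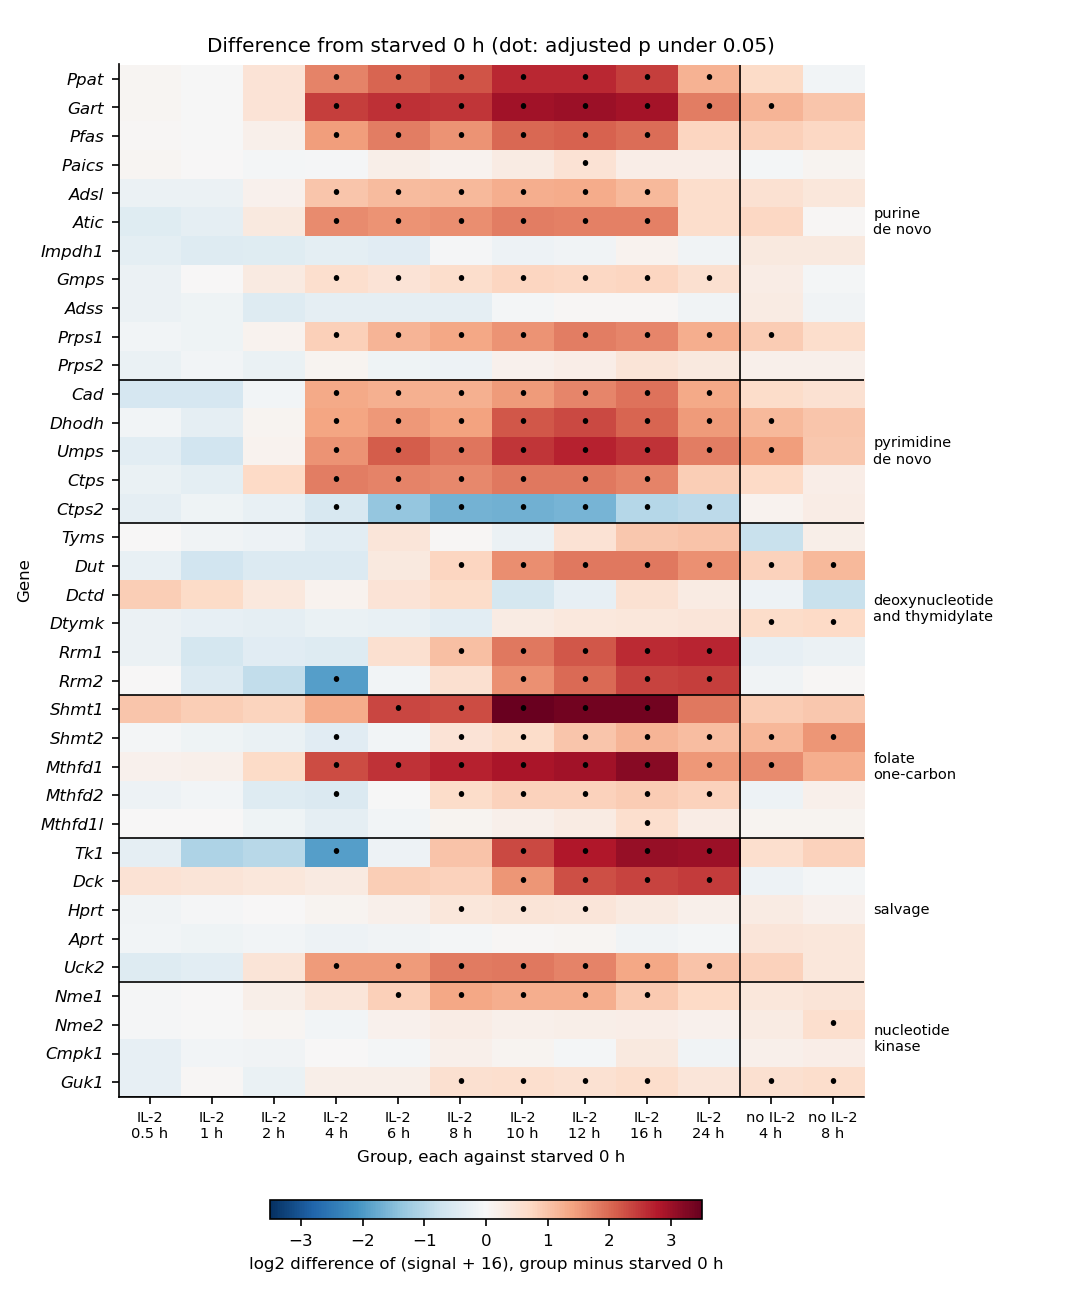
Log2 difference of each of the 36 members (rows, by arm) from starved 0 h, for the 10 IL-2 times and the 2 groups kept without IL-2 (columns). Red is higher and blue lower, and dots mark calls: 13 members were first called higher at 4 h, and Ctps2 was the only member called lower at all 7 times from 4 h.

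In the first 2 h no member was called. The median over the 36 members at 0.5, 1 and 2 h was -0.15, -0.13 and -0.03, beside 0.02, -0.02 and -0.05 over all genes tested. At an unadjusted p under 0.05, 0, 3 and 4 members passed, all of them lower. Calls were rare among all genes too, with 0.173% higher and 0.0138% lower at 0.5 h. The shares were 0.525% higher and 0.138% lower for 1 h, then 1.92% higher and 1.58% lower for 2 h. At 2 h the members ran from -0.97 to 0.77, with Ppat, Ctps and Mthfd1 at 0.47, 0.68 and 0.67 and Adss and Mthfd2 at -0.44 and -0.46. Atic and Uck2, which were called higher at 4 h, stood at -0.43 and -0.46 at 0.5 h. None of these differences was called.

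At 4 h 13 of 36 members were called higher, where 7.74% of all genes tested were, and 5 were called lower, where 11.1% were. Of the purine genes 7 of 11 were higher and 0 lower, and of the pyrimidine genes 4 of 5 were higher and 1 lower. The arm medians were 0.84 for purines and 1.38 for pyrimidines, beside -0.23 for all genes tested. The other arms had medians of -0.41 (deoxynucleotides), -0.30 (folate), 0.09 (salvage) and 0.11 (kinases). These arrays measure RNA of whole cultures, so a change in the share of cells in a given state and a change in RNA per cell cannot be told apart.

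Ppat, which commits phosphoribosyl pyrophosphate to purines, had signals of 1294.5, 1254, 1276.5 and 872.2 at IL-2 4 h, against 346.5, 314.2, 340.5, 336.4 and 338.3 at starved 0 h. The groups did not overlap, and the difference was 1.74 ± 0.36 (adjusted p = 0.000558). Gart, which carries several early steps of the ring, had 2417, 2188.3, 1948.9 and 2077.2 at IL-2 4 h, against 508.1, 402.7, 327.6, 419.4 and 323.4 at starved 0 h (2.41 ± 0.38, adjusted p = 1.92e-05), the largest rise of any member at that time. All IL-2 arrays were above all starved ones there too. Further along the same route Pfas (1.47), Adsl (0.98) and Atic (1.65), which closes the purine ring, were called higher as well. Gmps, which finishes GMP, was higher by 0.59 and Prps1, which makes phosphoribosyl pyrophosphate, by 0.84.

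Paics, Impdh1, Adss and Prps2 were the purine genes not called at 4 h. Paics, which acts between Pfas and Adsl, had 7145.3, 6697.2, 7127.1 and 6409.2 at IL-2 4 h, against 7357.8, 7068.6, 7278.6, 5856.7 and 7675.1 at starved 0 h (-0.04 ± 0.15, adjusted p = 0.905). Its arrays overlapped. Paics was called only at 12 h, at 0.50 ± 0.17 (adjusted p = 0.0296), and that call was lost without starved 0 h replicate 4 (0.436), IL-2 12 h replicate 1 (0.45) or IL-2 12 h replicate 3 (0.432). Impdh1, which turns IMP towards GMP, Adss, which turns it towards AMP, and Prps2, a relative of Prps1, were called at none of the 10 IL-2 times, with differences between -0.45 and 0.45.

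Ppat and Paics are neighbours, and their courses differed. In RefSeq (build GRCm38.p6) they start on opposite strands of chromosome 5 and their annotated starts overlap by 277 bases. Their promoter windows, 250 bases before to 50 after each start, are shown 5′ to 3′ on the gene's own strand, with those of Atic, called from 4 h, and Nme1, called from 6 h, because these windows held a searched motif. Capitals mark CACGTG (the E-box letters) in Paics, Atic and Nme1, and GCGGGAAA (the reverse complement of TTTCCCGC, an E2F-type word) in Ppat. The windows are chr5:76951529-76951828 (minus strand) for Ppat, chr5:76951052-76951351 (plus) for Paics, chr1:71556906-71557205 (plus) for Atic and chr11:93968223-93968522 (minus) for Nme1.
Ppat: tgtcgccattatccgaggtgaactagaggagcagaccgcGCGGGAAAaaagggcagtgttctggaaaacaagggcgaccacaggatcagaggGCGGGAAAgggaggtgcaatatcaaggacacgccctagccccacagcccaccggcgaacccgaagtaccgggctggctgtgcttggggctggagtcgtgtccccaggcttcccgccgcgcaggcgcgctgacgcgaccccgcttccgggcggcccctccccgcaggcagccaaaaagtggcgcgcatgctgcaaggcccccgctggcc
Paics: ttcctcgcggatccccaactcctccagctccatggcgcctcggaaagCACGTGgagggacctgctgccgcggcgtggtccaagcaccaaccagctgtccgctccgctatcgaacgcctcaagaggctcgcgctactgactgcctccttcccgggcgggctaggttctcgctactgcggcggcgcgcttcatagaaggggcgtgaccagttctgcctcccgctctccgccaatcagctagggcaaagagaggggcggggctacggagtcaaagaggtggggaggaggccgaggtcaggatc
Atic: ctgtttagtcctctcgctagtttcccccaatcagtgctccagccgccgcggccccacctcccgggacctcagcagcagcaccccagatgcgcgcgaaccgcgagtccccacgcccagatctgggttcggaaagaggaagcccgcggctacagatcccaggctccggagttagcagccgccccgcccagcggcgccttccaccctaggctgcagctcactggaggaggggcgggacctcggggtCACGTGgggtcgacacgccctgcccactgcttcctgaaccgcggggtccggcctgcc
Nme1: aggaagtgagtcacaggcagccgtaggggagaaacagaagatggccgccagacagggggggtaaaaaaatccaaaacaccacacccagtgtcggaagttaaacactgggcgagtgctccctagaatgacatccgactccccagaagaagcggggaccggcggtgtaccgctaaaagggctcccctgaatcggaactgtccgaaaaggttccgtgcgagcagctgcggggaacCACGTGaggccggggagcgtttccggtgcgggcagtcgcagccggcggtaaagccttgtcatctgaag

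The motifs were searched on both strands in the promoters of 35 members, and Pfas and Dhodh had no entry. CACGTG was found in 6 of the 35 (17.1%), counting any window of a gene, against 10.8% of 11617 tested genes with a window. The 6 were Atic, Paics, Nme1, Dtymk, Tyms and Impdh2. The E2F-type words TTTCCCGC, TTTCGCGC, TTTGCCGC and TTTGGCGC were found in 2 of 35 (5.71%), Ppat and Prps2, against 4.25% of tested genes. CCAAT was present in 15 of 35 (42.9%), against 42.2%. By time, CACGTG was in 1 of 11 members first called higher at 4 h with a window, in 2 of 13 called later and in 3 of 11 never called higher or not measured. A match is a description of the letters only.

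Cad, Dhodh, Umps and Ctps were the 4 pyrimidine genes called higher at 4 h. Cad, which carries the opening steps of the pathway, had 2414.8, 1179.2, 1234 and 1158.7 at IL-2 4 h, against 753.8, 303.4, 635.5, 660.7 and 562.6 at starved 0 h (1.32 ± 0.31, adjusted p = 0.00248). All 4 IL-2 arrays were above the starved ones, with replicate 1 highest. Dhodh, the mitochondrial step, was higher by 1.38 ± 0.33 (adjusted p = 0.003). Umps, which completes UMP, had 675, 709.3, 413.7 and 296.9 at IL-2 4 h, against 283.6, 80.5, 133, 298.4 and 94.1 at starved 0 h (1.57 ± 0.44, adjusted p = 0.0118). Its lowest IL-2 array fell just below its highest starved one, and the call was lost without IL-2 4 h replicate 2, where the difference was 1.40.

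Ctps and Ctps2 both make CTP from UTP. Ctps had 2961.2, 2949.2, 2509.4 and 2631.5 at IL-2 4 h, against 857.8, 697.6, 1044.5, 719.4 and 680.3 at starved 0 h (1.78 ± 0.33, adjusted p = 0.000196). Ctps2 had 1322.1, 1656.5, 1411.9 and 1399.8 at IL-2 4 h, against 2304.1, 2000.5, 2360.4, 2428.5 and 1722.4 at starved 0 h (-0.57 ± 0.19, adjusted p = 0.0364). The groups of each gene did not overlap, in opposite directions. Ctps2 was lower again at 10 h, at -1.67 ± 0.21 (adjusted p = 3.63e-07), and was the only member called lower from 6 h on, though not at 16 and 24 h with median centring. Its 24 h call was also lost without IL-2 24 h replicate 1 (-0.56). At 12 h it had 681.9, 773.3 and 607.8, all below every starved array.

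Uck2, which phosphorylates uridine and cytidine, was the 1 salvage gene called higher at 4 h. It had 5187.8, 4235, 4230.2 and 3971.3 at IL-2 4 h, against 1614.1, 1294.5, 1586.2, 2119.7 and 1315.5 at starved 0 h (1.48 ± 0.27, adjusted p = 0.000112). The 6 tested probe sets of Uck2 ranged between -0.62, on the dimmest, and 1.48, and 2 of them were called. Mthfd1, the cytosolic enzyme that makes formyl tetrahydrofolate, was the 1 folate gene called higher, with 1764.9, 1591.9, 1323.8 and 1347.2 at IL-2 4 h, against 355.4, 217.9, 373.2, 304.2 and 251.4 at starved 0 h (2.28 ± 0.42, adjusted p = 0.000171). Neither gene's groups overlapped.

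The 5 members lower at 4 h were Ctps2, Rrm2, Tk1, Shmt2 and Mthfd2. Rrm2, the small subunit of ribonucleotide reductase, had 454.6, 582.9, 2413.7 and 965 at IL-2 4 h, against 2392.6, 2869, 4411.6, 4163.8 and 3708.2 at starved 0 h (-1.92 ± 0.29, adjusted p = 1.33e-05). Replicate 3 just exceeded the lowest starved array and the other 3 were below all of them. Tk1, which phosphorylates thymidine, had 82.6, 68.6, 360.9 and 107.9 at IL-2 4 h, against 194.4, 337.3, 1102.5, 1205.7 and 412.4 at starved 0 h (-1.93 ± 0.47, adjusted p = 0.00375). Replicate 3 was again the highest IL-2 array and exceeded the starved arrays of 194.4 and 337.3, so the groups overlapped. The starved arrays themselves spread widely. Within scan day 3 (3 IL-2 and 2 starved arrays) the differences were -1.85 for Rrm2 and -2.13 for Tk1. Rrm1, the large subunit, was not called (-0.45, adjusted p = 0.412).

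Shmt2, the mitochondrial serine hydroxymethyltransferase, had 2704.3, 2781.4, 2718.7 and 2886.3 at IL-2 4 h, against 3744.4, 3168, 3577.5, 4066.3 and 3897.5 at starved 0 h (-0.41 ± 0.14, adjusted p = 0.0485). All IL-2 arrays lay below the starved ones. The 4 probe sets of Shmt2 ranged between -0.41 and -0.16, and 1 of them was called. Mthfd2, the mitochondrial dehydrogenase of the same route, had 4571.6, 5237.9, 6608.8 and 7170.4 at IL-2 4 h, against 8539.7, 6571.3, 8371, 8414.7 and 9300.9 at starved 0 h (-0.49 ± 0.17, adjusted p = 0.0418), and here the arrays overlapped. The lower calls of Shmt2, Mthfd2 and Ctps2 at 4 h were lost in 8, 6 and 6 of 9 fits that each left out 1 array, and in all 3 genes with each array centred on its median, which moved the median of all genes by 0.35 to 0.12. With that centring 14 members were higher and 2, Rrm2 and Tk1, lower.

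**Figure D2:**
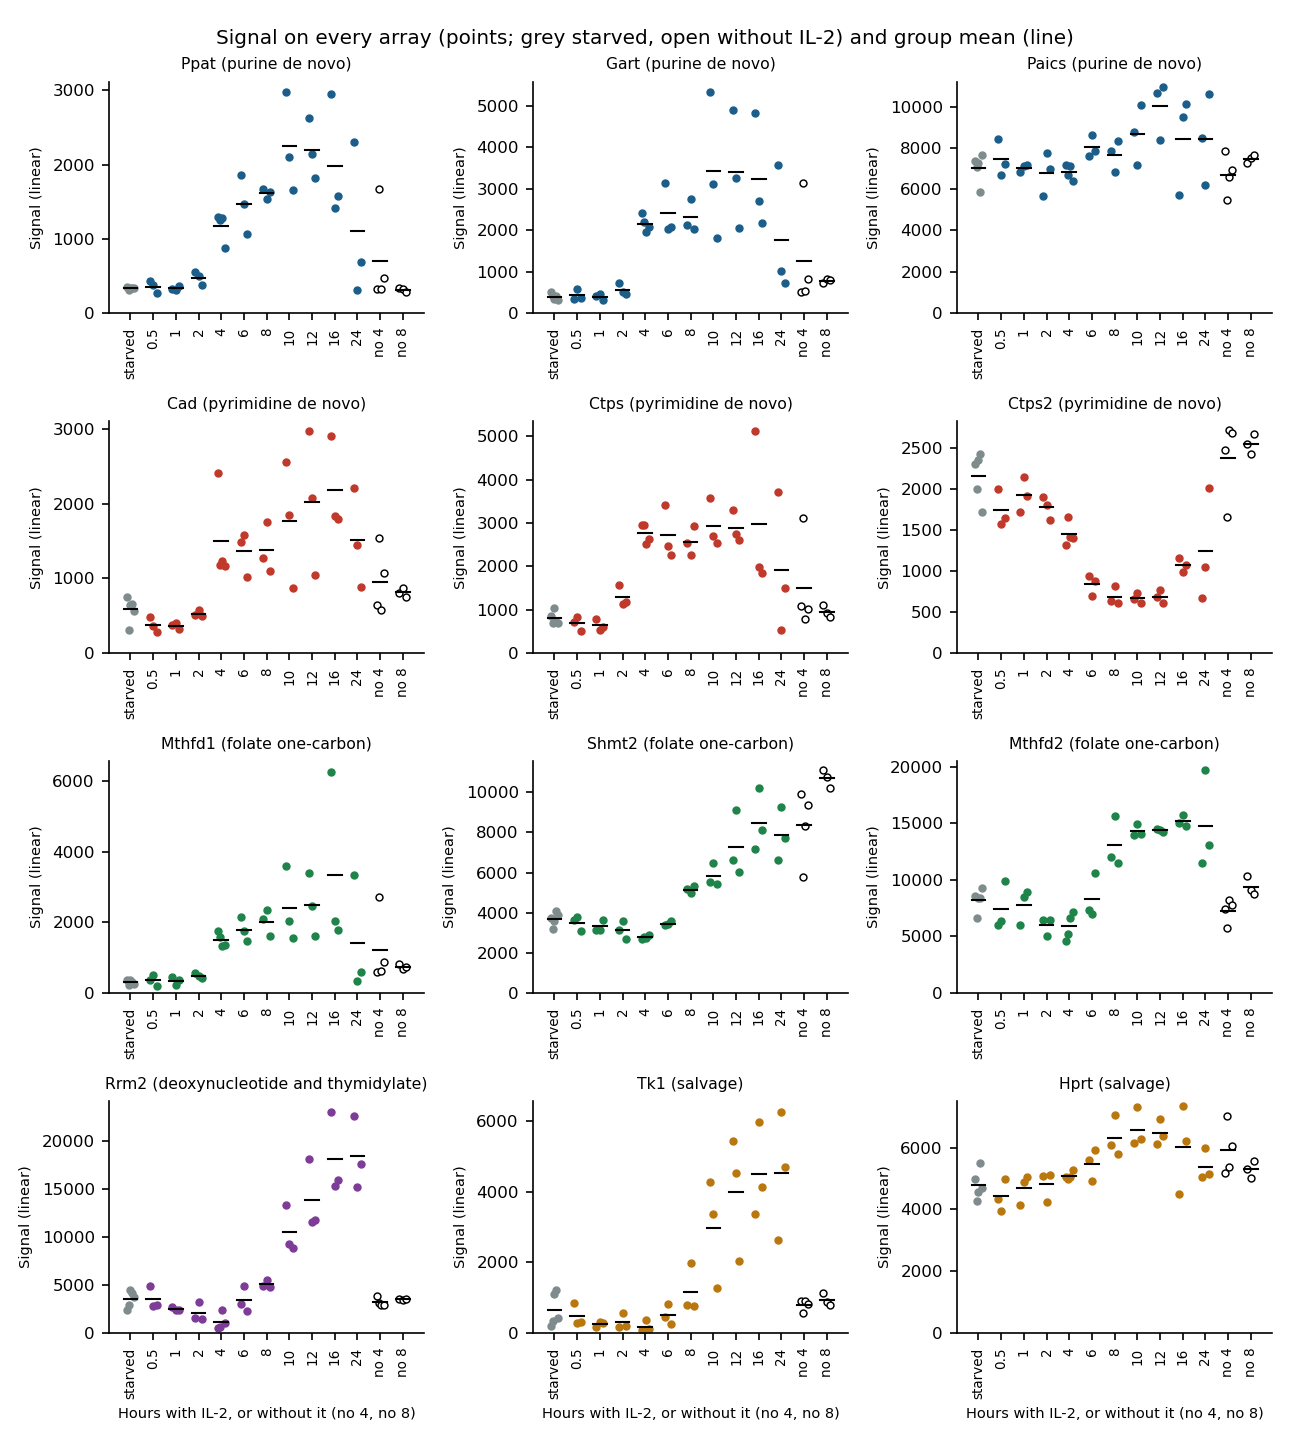
Linear signal on every array (points) with the group mean (line) for 12 members, over starved 0 h, the 10 IL-2 times in hours and no IL-2 at 4 and 8 h (open points). Ppat, Gart, Cad, Ctps and Mthfd1 are raised by 4 h, Rrm2 and Tk1 are lowest at 4 h and high from 10 h, and Ctps2 is lowest from 8 to 12 h.

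From 6 to 16 h the counts widened. At 6 h 15 members were higher (7.76% of all genes) and 1 lower (13.3%), and at 8 h 21 were higher (8.53%) and 1 lower (15.1%). At 10 h 24 were higher (9.67%) and 1 lower (15.5%). The 12 h arrays had 25 higher (9.66%) and 1 lower (14.6%), and the 16 h arrays 24 higher (9.01%) and 1 lower (10.9%). The member medians at these successive times were 0.44, 0.70, 1.27, 1.28 and 1.16, while that of all genes stayed between -0.25 and -0.05. Members first called higher at 6 h were Nme1 and Shmt1, and 6 followed at 8 h (Dut, Rrm1, Shmt2, Mthfd2, Hprt and Guk1). Of 8 fits that each left out 1 array, the first call was lost in 5 for Nme1, 7 for Hprt, 5 for Dut, 5 for Rrm1, 4 for Guk1, 3 for Shmt2, 1 for Mthfd2 and 0 for Shmt1. Rrm2, Tk1 and Dck were first called higher at 10 h, calls kept in all 8 such fits. Mthfd1l, which releases formate in mitochondria, was called only at 16 h (0.59 ± 0.17, adjusted p = 0.0152), a call lost without IL-2 16 h replicate 1 (0.388).

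**Figure D3:**
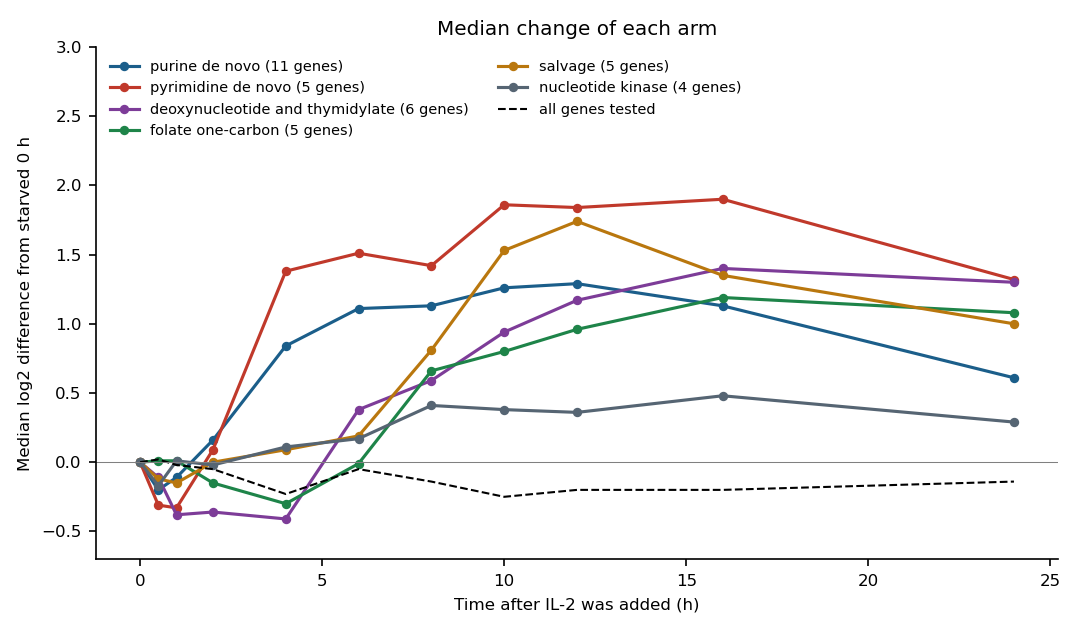
Median log2 difference from starved 0 h of each arm (lines) against hours of IL-2, with the median of all genes tested (dashed). The pyrimidine and purine arms stood at 1.38 and 0.84 at 4 h, when the deoxynucleotide arm was at -0.41 and all genes tested at -0.23. Of the 6 deoxynucleotide genes 1 was called lower at 4 h, and Tyms and Dctd among them were dim. The median of that arm reached 1.40 at 16 h.

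Of the deoxynucleotide genes 3 of 6, and of the salvage genes 4 of 5, were higher at 12 h, where 9.66% of all genes were. Rrm2 had 18175.9, 11574.1 and 11759.7 at IL-2 12 h, above all 5 starved arrays (1.98 ± 0.32, adjusted p = 1.82e-05). Rrm1 had 4236.7, 3652.4 and 2207.4 at IL-2 12 h, against 316.4, 570.3, 1458.5, 1314.3 and 516.3 at starved 0 h (2.17 ± 0.36, adjusted p = 2.64e-05). Both subunits stood clear of the starved arrays. Tk1 had 5431, 4530 and 2043.8 at IL-2 12 h (2.79 ± 0.52, adjusted p = 0.000115), also above all starved arrays, and within scan day 3 its difference was 1.57 (1 IL-2 and 2 starved arrays). Dut, which removes dUTP, was higher by 1.84 and Dck, which phosphorylates deoxycytidine, by 2.25, while Dtymk, the next kinase after thymidylate, was not called with its brightest probe set (0.36), although 1 of its 3 probe sets was (1.13).

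Tyms, which makes thymidylate, and Dctd, which supplies its substrate, could not be read well from their own probe sets. Tyms had 37.3, 60.6 and 90.2 at IL-2 12 h, against 52.7, 25, 28.6, 41.9 and 43 at starved 0 h, near or below most array medians, and on the probe sets used neither gene was called at any time. Another dim Tyms probe set was called at 12 h (2.12, adjusted p = 0.0106) and not at 4 h (0.49, adjusted p = 0.619). A brighter probe set that the annotation gives to both Tyms and the pseudogene Tyms-ps averaged 1820 ± 106 at IL-2 16 h and 449.6 ± 318.2 at starved 0 h (SD, n = 3 and 5; 2.24 ± 0.41, adjusted p = 0.000138). It was also higher at 12 h, by 1.66 ± 0.41 (adjusted p = 0.00292), and the 2 genes cannot be told apart on it. It was read after the values were seen and is in none of the counts.

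Among the folate genes Shmt1, the cytosolic serine hydroxymethyltransferase, changed most at 12 h, with 1440.8, 822.1 and 790.1 at IL-2 12 h, against 70.2, 71, 37.7, 120 and 137.5 at starved 0 h (3.36 ± 0.62, adjusted p = 0.000113). Its starved signals lay near the array medians, so the size depends on the constant added before the log. All 4 Shmt1 probe sets were called at 12 h, between 3.36 and 5.18, and 1 of the 4 was at 4 h (1.95, adjusted p = 0.00252). Shmt2 had 6639.5, 9142.5 and 6042.5 at IL-2 12 h (0.96 ± 0.16, adjusted p = 2.04e-05). Its 4 probe sets ranged between 0.11 and 1.26, and 3 of them were called. Mthfd2 had 14522.6, 14405.4 and 14239.1 (0.81 ± 0.18, adjusted p = 0.00132). For all 3 genes every IL-2 array exceeded every starved one, and Mthfd1 was higher by 2.94 ± 0.46 (adjusted p = 1.13e-05).

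At 12 h 8 of 11 purine genes were higher and 0 lower, and 4 of 5 pyrimidine genes were higher and 1, Ctps2, lower. Of all genes 9.66% were higher and 14.6% lower. Ppat had 2622.9, 2137.2 and 1822.4 (2.64 ± 0.39, adjusted p = 5.05e-06) and Gart 4891.8, 3257.6 and 2050.7 (2.98 ± 0.41, adjusted p = 1.97e-06) at IL-2 12 h, all above every starved array. Umps, with 1911.1, 1163.1 and 596.8, changed most among pyrimidine genes (2.70 ± 0.48, adjusted p = 7.47e-05). Nme1, a nucleoside diphosphate kinase, had 15042.7, 16977.5 and 16062.6 at IL-2 12 h, against 4632.2, 4098.1, 8414.7, 9239.7 and 8443.3 at starved 0 h (1.28 ± 0.30, adjusted p = 0.00161), with no overlap. Its second probe set, an x_at design that can bind related transcripts, was at -0.38 and not called. Hprt, which salvages hypoxanthine and guanine, had 6112.1, 6924.1 and 6374.5 at IL-2 12 h, against 4988.7, 4262.4, 4561.6, 5509.1 and 4679.9 at starved 0 h (0.43 ± 0.14, adjusted p = 0.0249). The calls of Hprt and of Guk1 (0.52), which phosphorylates GMP, were lost in 3 and 5 of 8 fits that each left out 1 array. Aprt, which salvages adenine, Nme2 and Cmpk1, which phosphorylates UMP and CMP, were called at no IL-2 time, and their differences at 12 h were 0.07, 0.20 and -0.07.

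Related members were set against each other in 5 pairs, chosen after their values were seen. In each pair the log2 change from starved 0 h to IL-2 12 h of the first gene exceeded that of the second: by 3.47 for Ctps over Ctps2, 2.41 for Shmt1 over Shmt2, 2.14 for Ppat over Paics, 1.56 for Prps1 over Prps2 and 1.08 for Nme1 over Nme2. All 3 IL-2 arrays lay on one side of all 5 starved arrays in every pair. As the pairs were picked for this, no test is given.

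Between 4 and 12 h of IL-2 the direct comparison called 8 members higher, where 2.47% of all genes were, and 1 lower, where 1.42% were. Tk1 changed by 4.72 ± 0.54 (adjusted p = 4.98e-07), Rrm2 by 3.90 ± 0.33 (adjusted p = 9.12e-10), Rrm1 by 2.61, Dut by 2.31, Dck by 1.94, Shmt2 by 1.36, Mthfd2 by 1.31 and Prps1 by 0.96. Ctps2 was lower by -1.06 ± 0.22 (adjusted p = 0.00216). Of the 13 genes first called higher at 4 h, Prps1 alone was called again, and its call was lost in 2 of 7 fits that left out 1 array. The others had differences between 0.06 (Ctps) and 1.13 (Umps), and a miss of the threshold does not show that they had stopped changing.

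At 24 h 16 members were higher than at starved 0 h (4.53% of all genes) and 1 was lower (6.36%). The 3 replicates of this time differed widely. Ppat had 2310.2, 304.9 and 693.6, Ctps 3714.2, 538.8 and 1487.7, and Mthfd1 3331.2, 331.8 and 602.5 at IL-2 24 h. Replicate 1, scanned on scan day 2, was in each case near the 12 h arrays and the other 2 were well below them. Rrm2, with 22649, 15197.9 and 17573.8, and Tk1, with 2625.7, 6258.7 and 4715.4, did not split in this way. Without replicate 1, 9 members were higher (3.22% of all genes in that fit) and 0 lower (5.3%): Prps1, Dut, Rrm1, Rrm2, Shmt2, Mthfd2, Tk1, Dck and Nme1.

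Between 12 and 24 h no member was called with all arrays by limma, nor was any gene (0% in each direction), although 1 member was higher and 11 were lower at an unadjusted p under 0.05. Without replicate 1 of 24 h the same fit called 9 members lower, where 4.2% of all genes were, and 1 higher, where 3.35% were. The lower ones were Ppat (-2.20), Gart (-1.88), Pfas (-2.38), Adsl (-1.27), Atic (-1.60), Dhodh (-1.45), Ctps (-1.66), Shmt1 (-3.13) and Mthfd1 (-2.37). Ctps2 was the higher one (1.07). With array weights 13 were lower and 1 higher. With replicate 2 or replicate 3 of 24 h left out instead, 0 members were called. Replicate 1 held the highest 24 h signals of Ppat, Ctps and Mthfd1, so leaving it out lowers the 24 h mean of such members. The mean correlation with the other 24 h arrays was 0.887, 0.896 and 0.913 for replicates 1, 2 and 3. Whether scan day or the culture set replicate 1 apart was not tested.

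**Figure D4:**
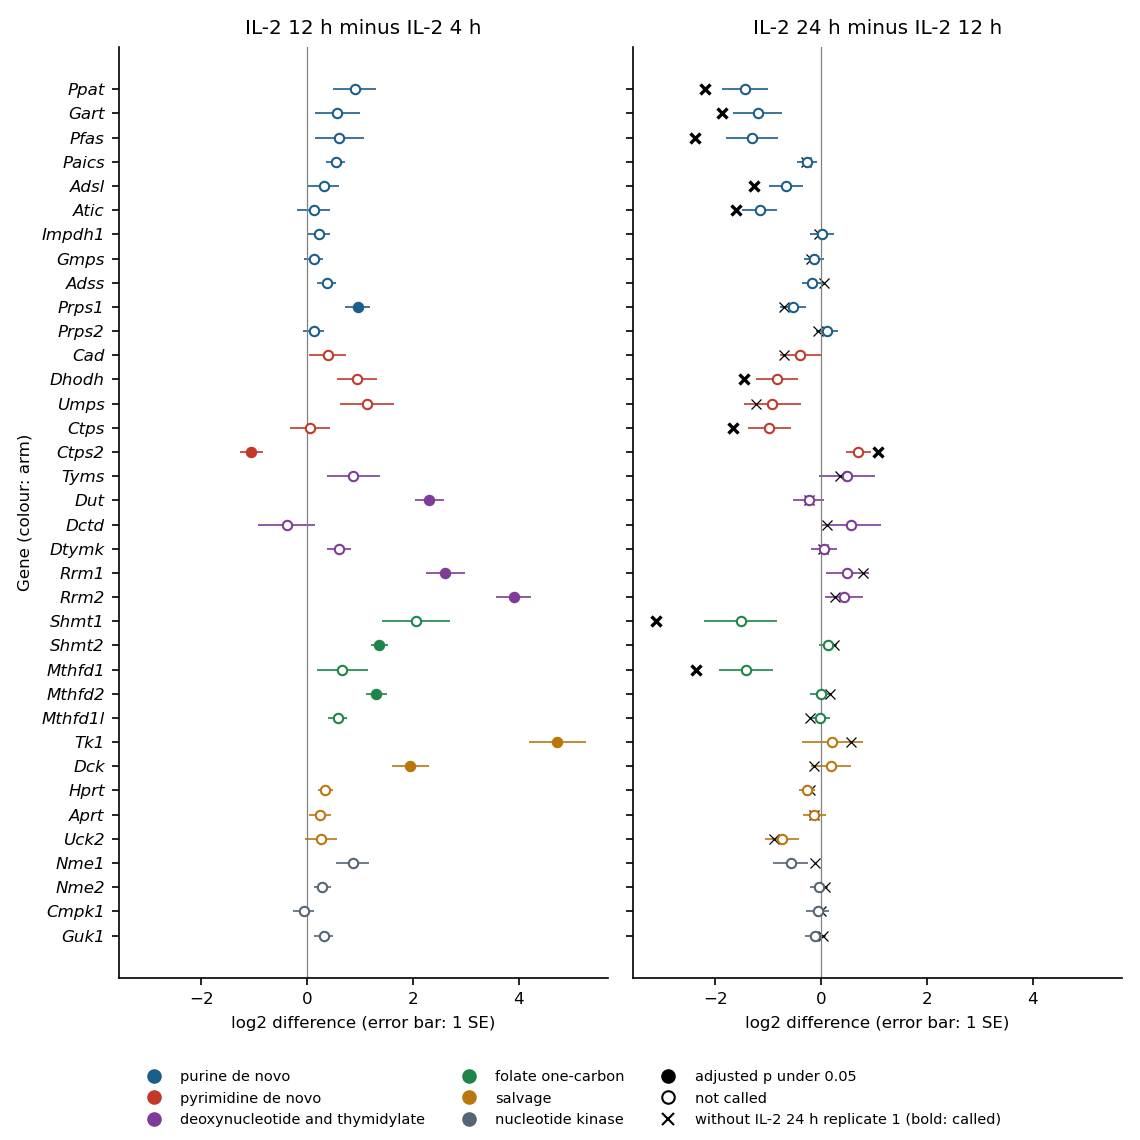
Log2 difference of each member between IL-2 12 h and 4 h (left) and between IL-2 24 h and 12 h (right), with 1 standard error, filled where called. Crosses on the right leave out IL-2 24 h replicate 1, bold where called: 9 members of the purine, pyrimidine and folate arms are lower and Ctps2 is higher, while Rrm1 (0.79), Rrm2 (0.27) and Tk1 (0.56) were not called. With replicate 2 or replicate 3 of 24 h left out instead, 0 members were called.

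Against cultures kept equally long without IL-2, 4 members were higher (6.78% of all genes) and 9 lower (10.1%) at 4 h. The higher ones were Gart (1.22), Ctps (1.09), Ppat (1.08) and Atic (0.94). The lower ones were Tk1 (-2.51), Rrm2 (-1.81), Shmt2 (-1.56), Dut (-1.27), Dtymk (-0.89), Impdh1 (-0.69), Ctps2 (-0.69), Aprt (-0.61) and Adss (-0.60). Replicate 2 of no IL-2 4 h had Ppat at 1671 and Gart at 3143.4, above all 4 IL-2 arrays, while replicates 1, 3 and 4 had Ppat at 320.9, 324.3 and 476.4. Without it 7 members were higher (8.83% of all genes), with Gart at 1.81, Ppat at 1.62, Ctps at 1.52, Atic at 1.34, Uck2 at 1.15, Cad at 0.94 and Gmps at 0.50, and 8 were lower (12.8%), Aprt no longer among them. Without replicate 3 or without replicate 4 of no IL-2 4 h, 0 were higher and 6 lower. With median centring 1 was higher and 5 were lower.

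At 8 h 9 members were higher with IL-2 than without it (8.77% of all genes) and 3 were lower (14.6%). Ppat had 1667.8, 1535.8 and 1632 at IL-2 8 h, against 336.6, 319.4 and 280.3 at no IL-2 8 h (2.31 ± 0.43, adjusted p = 0.000142). Atic (1.59), Gart (1.54), Ctps (1.43), Uck2 (1.43), Mthfd1 (1.41), Rrm1 (1.28), Prps1 (0.74) and Gmps (0.69) were the others. The calls of Mthfd1 and Prps1 were lost in 6 of 6 fits without 1 array, and that of Rrm1 in 2 of 6. The other 5 tested probe sets of Uck2 lay between -0.04 and 0.47 here, and the second probe set of Rrm1 was at 0.39 (adjusted p = 0.585). Ctps2 (-1.89), Dtymk (-1.09) and Shmt2 (-1.05) were lower. The 4 probe sets of Shmt2 ranged between -1.31 and 0.07, and 3 of them were called. The other 2 Dtymk probe sets were at -0.75 (adjusted p = 0.0295) and 0.32 (adjusted p = 0.386). Nme1 was not called (0.89), while its second probe set was called lower (-1.43, adjusted p = 0.0332). With median centring 5 members were higher and 3 lower. The effect of IL-2 differed between 8 and 4 h for 1 member, Rrm2 (2.33 ± 0.47, adjusted p = 0.0462), where 0.0414% of all genes were called higher and 0.0345% lower. That call was lost without any 1 of 10 arrays. For Tk1 the difference was 2.70 ± 0.76 (adjusted p = 0.175).

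**Figure D5:**
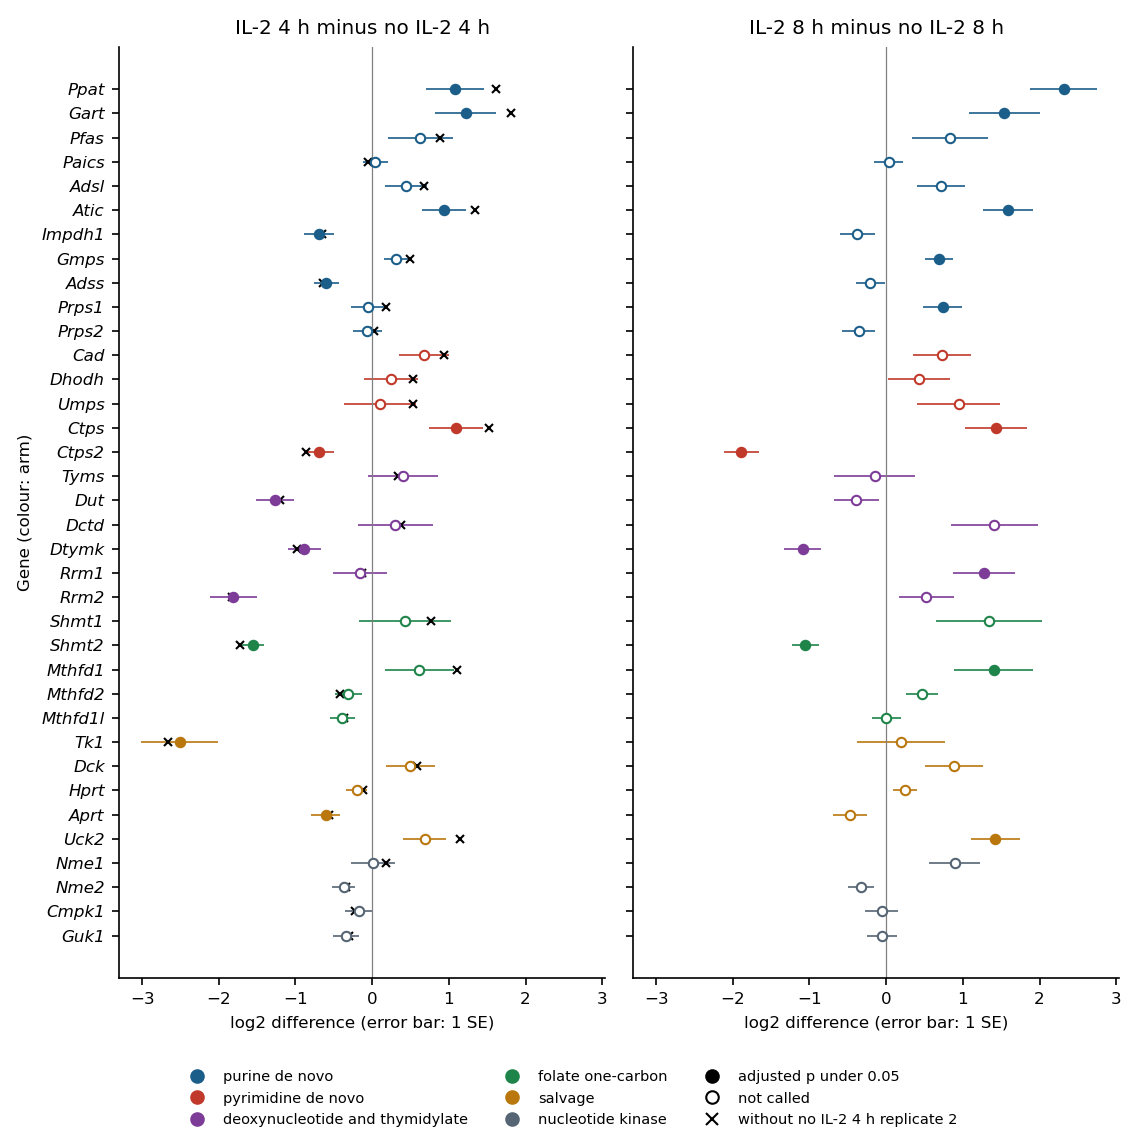
Log2 difference of each member between IL-2 and no IL-2 at 4 h (left) and 8 h (right), with 1 standard error, filled where called. Crosses on the left leave out no IL-2 4 h replicate 2: Gart is at 1.22 with all arrays and 1.81 without it, and Shmt2 and Dtymk lie below 0 at both times.

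Longer starvation was set against starved 0 h, a comparison that also crosses scan years. At 4 h more without IL-2, 9 members were higher (3.26% of all genes) and 0 lower (4.28%), with Mthfd1 (1.67), Umps (1.46), Gart (1.20), Shmt2 (1.15) and Dhodh (1.13) the largest. Without replicate 2, 2 were higher (1.53%) and 0 lower (2.22%), Shmt2 (1.32, adjusted p = 2.06e-07) and Dtymk (0.74, adjusted p = 0.0429). At 8 h more, 5 were higher (2.64%) and 0 lower (2.83%), namely Shmt2, Dut (1.14), Dtymk (0.71), Guk1 (0.62) and Nme2 (0.59, but -0.047 with quantile normalization). Without no IL-2 8 h replicate 1 there was 1, Shmt2. The Dtymk call was lost in 8 of 8 and the Guk1 call in 4 of 8 fits that each left out 1 array. Shmt2 had 11129.5, 10757.3 and 10226.5 at no IL-2 8 h, against 3744.4, 3168, 3577.5, 4066.3 and 3897.5 at starved 0 h (1.54 ± 0.16, adjusted p = 3.32e-08). Every such array was above every starved one, and above the 3 IL-2 8 h arrays of 5173.5, 4966.9 and 5314.8. Since all arrays without IL-2 were scanned in the later year, neither that rise nor the other differences here can be told apart from scan year.

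Of 61 other genes of these pathways 44 were tested. At 4 h 7 were higher and 3 lower than at starved 0 h, where 7.74% and 11.1% of all genes were. At 12 h 9 were higher and 9 lower, where 9.66% and 14.6% were. The list medians were -0.27 and -0.19. The largest rises at 4 h were Gcsh, a part of the glycine cleavage system (2.08), the nucleoside transporter Slc29a2 (1.98), the mitochondrial folate carrier Slc25a32 (1.93) and the nucleoside transporter Slc29a1 (1.69). The falls were Nme7 (-1.13), the adenylate kinase Ak1 (-0.91) and Dguok, the mitochondrial deoxyguanosine kinase (-0.67). At 12 h the largest rises were Slc29a1 (2.77), Slc29a2 (2.06), Gcsh (1.97) and Mtrr, the methionine synthase reductase (1.50), and the largest falls were Ak1 (-1.54), Adssl1 (-1.49), Ak3 (-1.02) and Uckl1 (-0.99).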

How the data were processed

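Gene expression was measured on 43 arrays of CTLL-2 cells in 13 groups, taken from the sample labels. Per the submitters' processing notes, signals were computed in GCOS 1.3. The deposited values are signal intensity on a linear scale, 1 per probe set, which the authors had scaled so that the 2% trimmed mean was the same on every array. Of 45101 probe sets 64 were controls; 34958 carried 1 gene name, 932 several and 9211 none in the platform annotation. Precision is limited by how many arrays each group holds.

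Signals were changed here to log2(signal + 16). Probe sets above the array median on at least 3 arrays were tested, 32184 in all. limma 3.58.1 in R 4.3.3 fitted 1 mean per group to all 43 arrays (30 residual degrees of freedom), with variances moderated along a mean-variance trend. Tests were two-sided, with Benjamini-Hochberg adjustment within each of 17 comparisons and for an F test. The fit was run on simulated data with independent noise on each array. Such data hold no scan days and cannot show how the fit handles them, while the real arrays had a correlation of 0.349 within scan day. Each gene was represented by the probe set of highest mean log2 value. Percentages of all genes are shares of 14479 genes so represented. Within-scan-day values used the scan days of the experiment files.

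All members are named. Signals on every array are given for a fixed panel and for the member of each arm that changed most at 4 h and at 12 h, and other pathway genes are named for at most 4 rises and 4 falls at each of those times. The members and lists were chosen with earlier results of these data known. Replicate numbers were checked for pairing: deviations of same-numbered arrays correlated between -0.358 and 0.469 (median 0.0241), and 11 of 43 arrays correlated best with their own number, so numbers were not taken as pairs. Alternatives were pseudocounts, normalizations, filters, probe set means, array weights, blocks, single scan days, thresholds and leaving out each array. The pairs of members and the joint Tyms probe set were added after seeing the data. Promoter sequences are from RefSeq, build GRCm38.p6.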

Additional observations from a re-analysis of the deposited data

Results flagged for a closer look

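In groups of 4 or 5 arrays 9 of 108 sets of member signals had 1 array far from the rest by Dixon's ratio of gap to range, where chance gives about 1 in 20. The sets were read on the same arrays, so they are not independent and the count does not test for an excess. Of the 9 sets 5 had no IL-2 4 h replicate 2 as the far array. It had Atic at 3656.1 (others 1120.3 to 1325.2), Dhodh at 846.5 (350.1 to 404.8), Uck2 at 7108.6 (1742.3 to 2169.5) and Nme1 at 12526.2 (7516.8 to 7903.1), all high, and Dtymk at 1782.8 (2298.9 to 2421), which was low. At IL-2 4 h, Ppat in replicate 4 was low at 872.2 (others 1254 to 1294.5), and Cad in replicate 1 was high at 2414.8 (1158.7 to 1234). At the same time Rrm1 in replicate 3 was high at 944.9 (392.4 to 450.6), and Nme1 in replicate 1 was low at 7078.7 (9250.6 to 9712). The effect of IL-2 against no IL-2 on Rrm2 differed between 8 h and 4 h by 2.33 in a test of the difference. That call was lost without any 1 of 10 arrays, and both effects compare arrays of different scan years.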

How the results depend on the processing

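Of 198 called member differences 140 kept their call in every fit that left out 1 array, and 182 of 182 called values that could be formed within a scan day kept their sign. Those values reuse part of the arrays behind the calls, with 1 or 2 starved arrays per scan day. Their shared sign is therefore no independent check. With a replicate block, fitted although the numbers did not pair the arrays, 190 of the 198 kept their call and 28 members passed the F test, and no count moved by over 1.5 times. Nme2 in no IL-2 8 h against starved 0 h had the opposite sign under quantile normalization (-0.047). The counts of members called that moved by over 1.5 times follow, and the cause was not tested. For the difference of IL-2 effects 0 were called with a pseudocount of 64, quantile normalization, median centring, no filter, only the arrays compared, no variance trend, an adjusted p under 0.01 or all probe sets of a gene averaged, 5 with array weights and 2 with scan day as a random block. At IL-2 1 h 1 was called with array weights, and at 2 h 1 with quantile normalization, scan day as a fixed block or without scan day 2. For no IL-2 4 h the count was 14 with median centring, 4 with only the arrays compared or probe set means, 1 with the random block, 5 with a 2-fold minimum and 2 at 0.01. For no IL-2 8 h it was 2 with median centring, a 2-fold minimum or 0.01, 11 with array weights and 1 with the random block. For IL-2 set against its absence at 4 h it was 6 with median centring, 22 with array weights, 4 with the random block, 7 with a 2-fold minimum and 5 at 0.01, and at 8 h 21 with only the arrays compared and 24 with array weights. At 24 h it was 7 with only the arrays compared, 9 without scan day 2, 11 at 0.01 and 0 on scan day 3 alone, which also gave 14 at 8 h, 10 at 10 h, 12 at 12 h, 4 for 12 against 4 h and 1 for 24 against 12 h. With array weights 15 were called for 12 against 4 h and 14 for 24 against 12 h, where leaving out scan day 2 gave 10. Leaving out 1 array gave 0 to 1 for the difference of effects, 0 to 10 for 24 against 12 h, 9 to 18 for 24 h, 6 to 15 for IL-2 set against its absence at 4 h, 2 to 9 for no IL-2 4 h and 1 to 4 for no IL-2 8 h. Array number and dim probe sets, those of Tyms and Dctd above all, limit what could be called.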
